A study of Mus musculus with 37 samples.

Results

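The cells described here were the pericytes and smooth muscle cells of the injured mouse heart, the mural cells of its vessels, as captured by single-cell RNA sequencing of nonmyocytes at 7 days after injury. A cell barcode was counted as a member when Rgs5, Myh11, Higd1b and Kcnj8 together had at least 4 counts and made up at least 0.1% of its counts. It also had to hold less than 0.3% of its counts in the complement genes C1qa, C1qb and C1qc, which mark macrophages, and less than 0.3% in the endothelial genes Pecam1, Cdh5, Emcn, Egfl7 and Flt1. By this rule 222 of 12807 barcodes were members, 150 of 7460 ENPP1CKO and 72 of 5347 control barcodes. The members were chosen from measured counts, so the levels of the genes in the rule are a description and support nothing.

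The study asked how the ectonucleotidase ENPP1 acts on the cells of the healing heart. ENPP1CKO mice carried the tamoxifen-inducible Col1a2CreERT driver and floxed ENPP1 alleles, and tamoxifen was given from before injury until the hearts were taken, to delete ENPP1 in cardiac fibroblasts (CFs). The control library came from mice whose genotype is labelled wild type, described in the study as littermates. Both groups are labelled C57BL/6 with myocardial infarction of 7 days, and the study's adult mice had 1 coronary artery, the left anterior descending, tied off for good. There was 1 library per genotype, and how many animals were pooled in each, their sex, and whether controls carried the driver or received tamoxifen are not given in the sources used here. Transcripts of Col1a2, whose promoter drives the Cre, were also present in the members, with 2136 CPM (counts per 1000000 counts) in ENPP1CKO and 2512 CPM in control members, and whether the driver acted in them was not tested. With 1 library per genotype no test between genotypes was possible, cells were not treated as replicates, and no difference can be set against the spread between animals.

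Pericytes wrap capillaries and venules, share the basement membrane of the endothelium and respond to platelet-derived growth factor and Notch ligands made by endothelial cells. Smooth muscle cells ring arterioles and larger vessels and contract through smooth muscle actin and myosin under the control of calcium and of vasoactive hormones. Rgs5, a regulator of G protein signalling, is expressed by both. Higd1b, a mitochondrial membrane protein, and Kcnj8, the pore of a potassium channel gated by ATP, mark pericytes, and Myh11, the heavy chain of smooth muscle myosin, marks smooth muscle. In an infarct, mural cells can also take up matrix synthesis and release chemokines.

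Values below are counts of unique molecules summed over the members of a library and divided by their total, in CPM. A log2 ratio sets the ENPP1CKO level over the control level, so a ratio of 1 is a 2-fold higher level in the ENPP1CKO library. Numbers in brackets are 95% limits, exact but for the Newcombe limits of a difference of shares, which reflect counting error alone, without the spread among animals or cells. ENPP1CKO members held 410176 and control members 342396 counts, of 28039559 and 22746607 in all barcodes. An ENPP1CKO member had a median of 2076.5 counts (lowest 535, highest 8514) and a control member 4036 (lowest 508, highest 28147). The control members were thus the deeper cells, and their 10 deepest cells held 32.0% of their counts, against 17.4% in the ENPP1CKO library. Values over all members without those cells were computed after the first results had been seen, and stand beside many results that they move. None are given for the sides of the split described further on. The median share of mitochondrial counts, a sign of RNA quality, was 3.97% in ENPP1CKO and 2.77% in control members, and 5.06% and 2.98% on the smooth muscle side described further on.

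Enpp1 itself (chr10:24637914-24712159 of the mouse build GRCm38, which is also called mm10) was scarce in the members of either library. It had 4 counts in 4 ENPP1CKO members and 7 counts in 6 control members, or 9.75 and 20.4 CPM, with limits of the log2 ratio from -3.29 to 0.91. A loss of Enpp1 in mural cells was therefore not detectable at this depth. In fibroblast-gated barcodes, those with at least 2% of their counts in Col1a1, Col1a2, Col3a1 and Dcn, Enpp1 stood at 27.1 CPM with the deletion and 126 CPM without it (log2 ratio -2.22 [-2.39, -2.05]). Which bases of Enpp1 were deleted is not given in the sources used here, so a count may come from outside the deleted part.

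Members made up 2.01% [1.70, 2.36] of the ENPP1CKO barcodes and 1.35% [1.06, 1.69] of the control barcodes, a difference of 0.664 percentage points [0.210, 1.11]. Among barcodes outside the macrophage gate, which held 2018 ENPP1CKO and 1999 control barcodes, the shares were 2.76% and 2.15%. Among barcodes with at least 1000 counts they were 1.92% and 1.43%, and with every barcode thinned to 1000 counts before the rule was applied they were 1.37% and 0.961%. The ENPP1CKO share was the higher one in each of these counts. The number of mural cells in the heart and their release from the tissue cannot be told apart in such shares. Near the threshold, the lowest share of counts in the marker genes inside the rule was 0.104% for ENPP1CKO and 0.106% for control members. Among barcodes that met every other part of the rule, the highest share outside it was 0.0958% and 0.0996%. Barcodes that failed another part reached higher shares, such as 0.195% and 0.137%, the highest among fibroblast-gated barcodes, which are defined above. Exactly 4 marker counts were held by 11 ENPP1CKO members and 1 control member, and 7 ENPP1CKO barcodes and 0 control barcodes missed the rule with 3 counts only. The C1q limit left out 5 ENPP1CKO barcodes and the endothelial limit 4, whereas neither left out a control barcode. Scrublet predicted 2 ENPP1CKO members and 0 control members as doublets. The libraries shared 68 barcodes, and no barcode was a member in both.

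The marker genes of the rule, which every member holds by choice, were unevenly spread. Rgs5 gave 74.2% of the marker counts of ENPP1CKO members and 79.0% of those of control members, and was found in 135 of 150 and 64 of 72 cells. Myh11 was found in 64 and 37 cells, Higd1b in 101 and 47, and Kcnj8 in 53 and 27. Vtn, which encodes the adhesion protein vitronectin, is a pericyte marker that the rule did not use, and it was found in 34.0% of ENPP1CKO members and 30.6% of control members and in 0.0% of macrophage-gated barcodes. With cells thinned to 1000 counts the shares of Vtn were 27.1% and 21.4%. Most members thus lacked a count of this independent marker. One set that stood apart was a collagen-rich one of 15 ENPP1CKO and 6 control members with at least 2% of their counts in the 4 collagen and decorin genes. Of these, 9 and 4 held Rgs5 alone of the marker genes, and Dcn stood at 7301 and 9985 CPM, against 815 and 634 CPM in the pericyte side described next. The collagen-rich members are therefore called by their leading genes and not as pericytes. They are kept in the sums over all members, with values without them where they matter.

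The remaining members were split by counts into a pericyte side, where Higd1b, Kcnj8, Vtn and Abcc9 together exceeded Myh11, Lmod1, Cnn1 and Actg2, and a smooth muscle side, where they were below. This gave 80 cells on the pericyte side, 48 on the smooth muscle side and 7 tied in the ENPP1CKO library, and 31, 26 and 9 in the control library. Of the tied cells 5 of 7 and 5 of 9 held Rgs5 alone of the marker genes. The smooth muscle side held 35.6% [27.5, 44.2] of the ENPP1CKO cells and 39.4% [27.6, 52.2] of the control cells, a difference of -3.84 percentage points [-18.1, 9.90]. These limits cover the draw of cells from 2 single libraries and not the spread between animals. The shares depended on the genes of the split. With Myh11 alone as the smooth muscle sum they were 26.7% and 21.2%, which turned the direction (5.45 percentage points). With Rgs5 added to the pericyte sum they were 17.8% and 21.2%. The split is a range and not a boundary between types: the sums differed by at most 1 count in 26 of 135 and 16 of 66 cells, and 54 and 40 cells held counts of both sums. The pericyte side was shallow, with a median of 1587.5 counts per ENPP1CKO cell and 3695 per control cell, and the smooth muscle side had 3468 and 4075.5. The deepest control cell was on the smooth muscle side and held 28147 of the 141352 control counts there. All control levels on that side given below include this cell, and their ratios without it are not given.

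**Figure D1:**
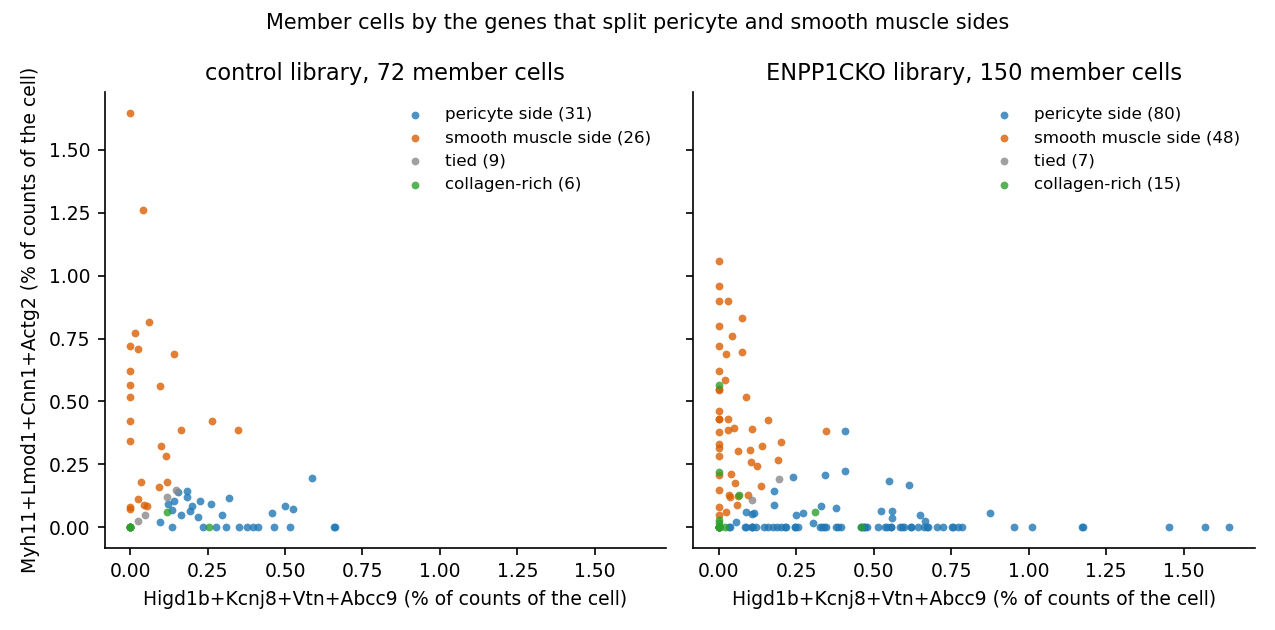
Each point is 1 member, placed by the percent of its counts in the pericyte genes Higd1b, Kcnj8, Vtn and Abcc9 and in the smooth muscle genes Myh11, Lmod1, Cnn1 and Actg2, in the ENPP1CKO and the control library. Cells spread along both axes in each library, with 80 and 48 ENPP1CKO cells and 31 and 26 control cells on the pericyte and the smooth muscle side.

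The sides differed in many genes in the same direction in each library. Of 1832 genes with at least 50 counts, 74 (4.04%) were at least 2-fold higher on the pericyte side in both libraries, and 84 (4.59%) were at least 2-fold higher on the smooth muscle side in both, the 8 genes of the split included among those compared. Since cells were sorted by counts of related genes, these are descriptions of the sort. Of 14 genes of the pericyte list that could be compared, 8 were 2-fold higher on the pericyte side, and of 20 contractile genes 18 were 2-fold higher on the smooth muscle side, lists that include genes of the split. Among genes outside the split, Rgs5 was higher on the pericyte side, with a log2 ratio of the sides of 1.79 for ENPP1CKO and 1.67 for control cells. The collectin Colec11 (5.04 and 3.39), the interferon-inducible membrane protein Ifitm1 (4.13 and 2.52), the globin Cygb (3.57 and 2.44) and the septin Sept4 (2.09 and 2.01) were on the same side. Pdgfrb, the receptor of platelet-derived growth factor, was at 2.62 and 1.40. On the smooth muscle side stood Acta2, which encodes smooth muscle actin (-2.65 and -2.29), Tagln, an actin-binding protein (-2.64 and -2.28), the actin-crosslinking gene Palld (-2.84 and -2.71), the adaptor Sorbs2 (-5.42 and -5.45) and the secreted proteins Itih4 (-4.15 and -3.08) and Crispld2 (-2.32 and -2.37).

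Set beside the fibroblast-gated barcodes, members of both libraries were far higher in genes of vascular smooth muscle and pericytes that the rule did not use. Olfr558, a member of the odorant receptor family expressed outside the nose, stood at 407 CPM in ENPP1CKO members and 310 CPM in control members, log2 ratios over fibroblasts of 11.52 and 9.82. Those of Vtn were 9.02 and 10.83, of the Purkinje cell protein Pcp4l1 9.45 and 10.29, of the calcium store protein Casq2 9.31 and 9.81, and of Colec11 6.65 and 6.71. Among genes lower in members were Pdgfra, the fibroblast receptor of platelet-derived growth factor (-3.15 and -4.69), Pi16, a marker of adventitial fibroblasts (-4.10 and -3.20), and the transcription factor Meox1 (-3.07 and -3.56). The gates left out barcodes that met the marker threshold, which sets part of these differences.

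Between the genotypes, the pericyte markers as a list were slightly higher in the ENPP1CKO library, with a summed log2 ratio of 0.21 [0.15, 0.28], and of 0.38 [0.30, 0.46] on the pericyte side. Over all members the ratio ran from 0.08 with the marker threshold doubled to 0.35 with every member given the same weight. It was 0.12 without the deepest control cell. This list holds genes of the rule and of the split. Without those 5 genes the sum was at 0.31 [0.20, 0.41] in members, with 10 genes higher and 1 lower. It was then at 0.40 [0.26, 0.54] on the pericyte side and 0.49 [0.29, 0.69] on the smooth muscle side. Rgs5 (chr1:169655501-169695813) stood at 5934 CPM in ENPP1CKO members and 5368 CPM in control members (log2 ratio 0.14 [0.06, 0.23], and -0.01 with the marker threshold doubled). Higd1b (chr11:102835849-102838040) was at 758 and 640 CPM (0.25 [-0.01, 0.50]), Kcnj8 (chr6:142564837-142571614) at 310 and 269 CPM (0.20 [-0.19, 0.61]) and Vtn (chr11:78499091-78502324) at 395 and 415 CPM (-0.07 [-0.40, 0.26]). For Higd1b, Kcnj8 and Vtn the limits over all members include equal levels. On the pericyte side Rgs5 was at 0.32 [0.22, 0.43] and Higd1b at 0.71 [0.39, 1.03]. The rule itself asked for counts of Rgs5, Higd1b and Kcnj8, and the split used Higd1b, Kcnj8 and Vtn, so these values are a description. Pdgfrb was at 344 and 301 CPM (0.19). Ndufa4l2, a mitochondrial protein induced by low oxygen, was at 1260 and 1247 CPM. Further pericyte genes were higher in the ENPP1CKO library by less than 2-fold. Abcc9, the regulatory subunit that pairs with the Kcnj8 pore, was at 312 and 184 CPM (0.76 [0.32, 1.22]). Abcc9 is a gene of the split, so its levels on the sides are set in part by the sort. Its ratio was 1.11 on the pericyte side and -2.63 on the smooth muscle side, and -0.76 with equal weight for both sides. Cox4i2, a subunit of mitochondrial complex IV, was at 685 and 380 CPM (0.85 [0.55, 1.16]). Of 17 genes in the pericyte list, 16 had at least 20 counts, 14 were higher and 2 lower in the ENPP1CKO library, and none differed 2-fold in either direction. Over all 4628 genes with at least 20 counts, 5.77% were at least 2-fold higher and 4.36% at least 2-fold lower. The median log2 ratio of the list was 0.22, beside 0.01 over those genes.

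**Figure D2:**
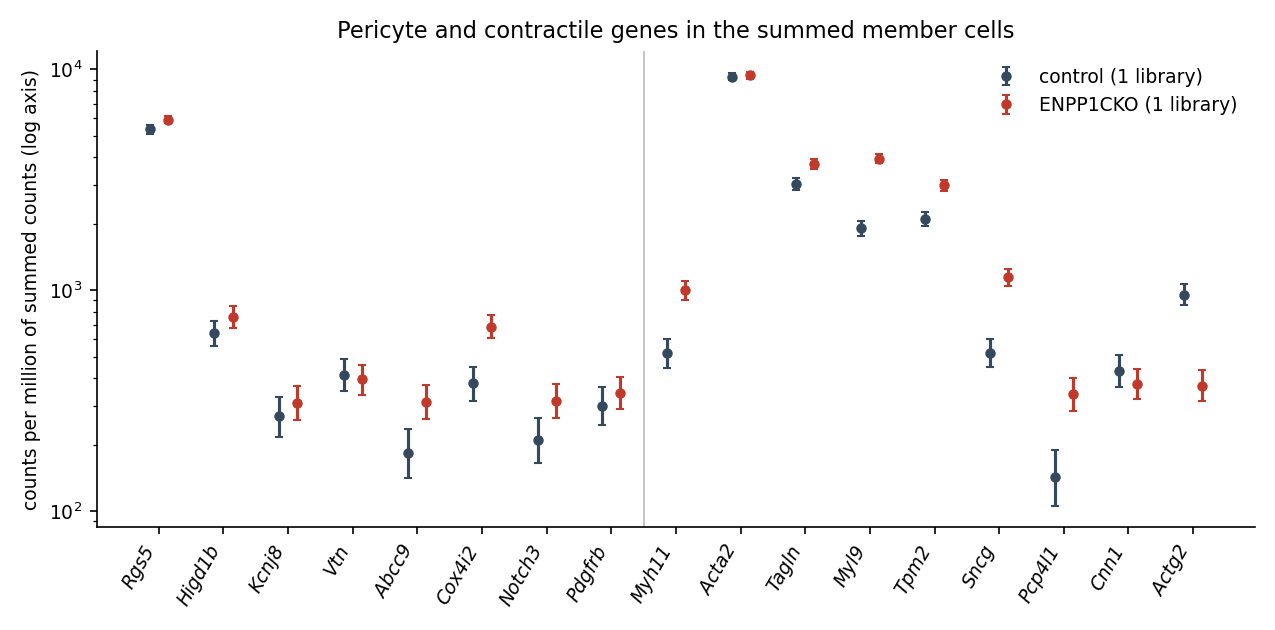
Levels of pericyte genes (left of the line) and contractile genes (right) in CPM with 95% Poisson limits, on a log axis, in the summed members of the ENPP1CKO and the control library. The limits of the 2 libraries overlap for Higd1b, Kcnj8 and Vtn and lie apart for Rgs5 and for Myh11, both higher in the ENPP1CKO library. Rgs5, Higd1b, Kcnj8 and Myh11 are genes of the rule.

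Summed over members, contractile genes stood higher in the ENPP1CKO library than in the control library, whereas in fibroblasts they stood lower. Myh11 (chr16:14194535-14291372), a gene of the rule, had 999.6 CPM in ENPP1CKO and 520 CPM in control members, and its log2 ratio of 0.94 [0.69, 1.21] was just under 2-fold. On the smooth muscle side alone it was at 2012 and 1054 CPM (0.93). Myl9 (chr2:156775420-156781658), the regulatory light chain of smooth muscle myosin, whose phosphorylation switches contraction on, had 1621 and 655 counts, or 3952 and 1913 CPM. Its log2 ratio was 1.05 [0.91, 1.18], with 1.10 on the smooth muscle side (7572 and 3537 CPM) and 0.57 on the pericyte side (1337 and 903 CPM). Sncg (chr14:34370274-34374789), gamma-synuclein, was at 1146 and 523 CPM (1.13 [0.88, 1.39]) and was higher in the ENPP1CKO library on both sides, with 541 and 240.3 CPM on the pericyte side and 2098 and 962 CPM on the smooth muscle side. Pcp4l1 was at 339 and 143 CPM (1.24 [0.76, 1.74]). The mitochondrial share of the cells was also higher in the ENPP1CKO library, as given above, and its part in these ratios was not tested. Smaller differences were those of Tpm2, a tropomyosin (0.50 [0.37, 0.64]), and Tagln (0.30 [0.18, 0.41]).

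Acta2 (chr19:34241090-34255590) had 9394 CPM in ENPP1CKO and 9276 CPM in control members (0.02 [-0.05, 0.09]), and the smooth muscle sides were at 17999 and 18061 CPM. On the pericyte side Acta2 was at 2869 and 3699 CPM (-0.37 [-0.55, -0.18]). There Acta2 was detected in 43.8% of the ENPP1CKO cells and 90.3% of the control cells, and in 45.3% and 71.0% of the cells with every cell thinned to 1000 counts, which left out 16 ENPP1CKO and 0 control cells. Macrophage-gated barcodes, which should lack Acta2, had a count in 4.46% and 11.5%, and in 1.37% and 3.88% when thinned, with medians of 3345 and 3545 counts per barcode. The shares on the pericyte side were thus above that background in both libraries, and the background was also lower in the ENPP1CKO library. Actg2, the enteric smooth muscle actin, went the other way from Myl9, with 371 and 955 CPM and a log2 ratio of -1.37 [-1.65, -1.08]. It was lower in the ENPP1CKO library on the smooth muscle side (676 and 2066 CPM, -1.61) and on the pericyte side (-1.12), although Actg2 is a gene of the split. Cnn1, calponin, was at 378 and 432 CPM (-0.19 [-0.53, 0.14]).

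The contractile list holds Myh11, a gene of the rule and of the split, and Lmod1, Cnn1 and Actg2, genes of the split. Without those 4 genes, 17 genes had at least 20 counts, and 17 were higher and 0 lower in the ENPP1CKO library. Their sum was at 0.33 [0.29, 0.37] in members, 0.34 [0.29, 0.38] on the smooth muscle side and 0.09 [0.00, 0.18] on the pericyte side. With the 4 genes, 21 of 22 contractile genes had at least 20 counts, of which 19 were higher and 2 lower in the ENPP1CKO library. Their median log2 ratio was 0.30. At least 2-fold higher were Myl9, Sncg and Pcp4l1, and at least 2-fold lower was Actg2. Their counts summed to 34707 CPM in ENPP1CKO and 28046.5 CPM in control members, a log2 ratio of 0.31 [0.27, 0.34], with 0.30 [0.26, 0.35] on the smooth muscle side and 0.07 [-0.02, 0.16] on the pericyte side. In fibroblast-gated barcodes the same genes summed to 1946 and 3717 CPM, a log2 ratio of -0.93. Single genes were lower there, with -2.23 for Acta2, -1.35 [-1.44, -1.26] for Myl9, -1.48 for Sncg, -3.91 for Actg2 and -3.56 for Cnn1. These values are set side by side, and the difference between members and fibroblasts was not tested. The size of the contractile sum depended on the weight of the cells. Over all members it was 0.28 without the deepest control cell and 0.19 with cells thinned to 1000 counts. With every member given the same weight it was 0.07, and Myh11 was then at 0.33. The deepest control cell was on the smooth muscle side, with 28147 of 141352 control counts. The contractile ratios of that side, those of Myh11 and Myl9 included, are not given without it. The median member held a lower percent of its counts in these genes in the ENPP1CKO library, 1.17 against 1.71. The medians were 0.63 and 1.11 on the pericyte side, and 6.40 and 4.89 on the smooth muscle side, so the ENPP1CKO median was the higher one on the smooth muscle side and the lower one on the pericyte side.

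**Figure D3:**
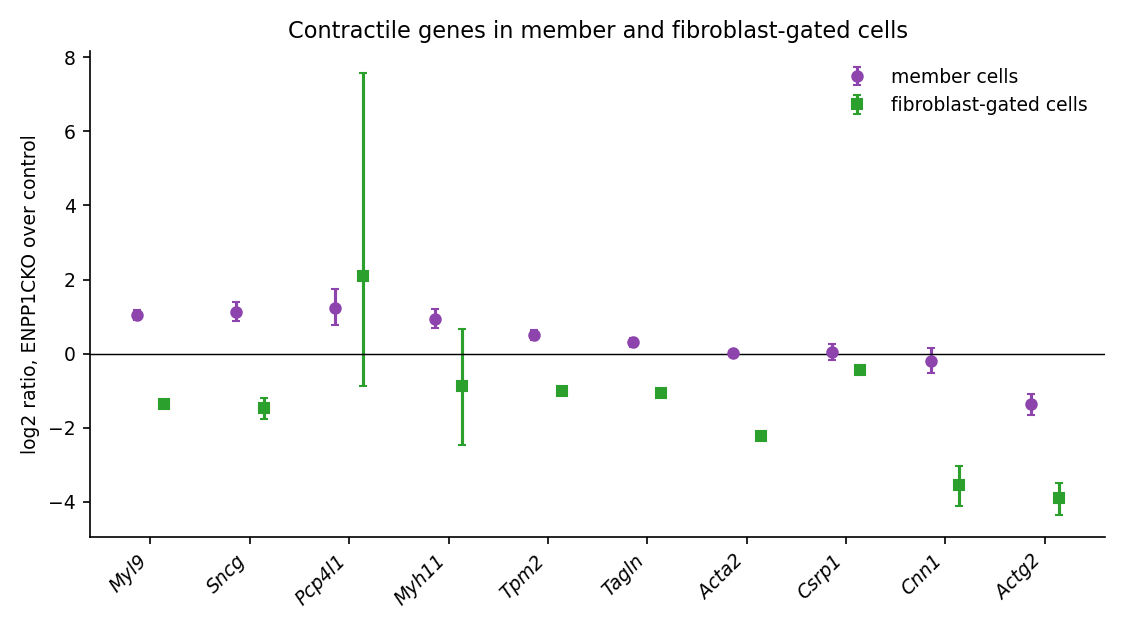
Log2 ratios of ENPP1CKO over control for the contractile genes, with 95% limits, in members and in fibroblast-gated barcodes. Myl9 and Sncg lie above 0 in members and below 0 in fibroblasts, and Actg2 lies below 0 in both.

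The promoter of Myl9 is shown because its ratios in members and in fibroblasts were past 2-fold in opposite directions, and 2 stretches of that of Acta2 because its ratio in members was near 0. Smooth muscle genes are classically controlled by serum response factor with its coactivator myocardin, which bind a motif called the CArG box. The box was searched by name on both strands in the 250 bases before each transcription start of RefSeq on GRCm38.p6. The Myl9 stretch is chr2:156775214-156775413 on the plus strand. Capitals mark an exact box, 161 bases before the start, and a box with 1 mismatch, 99 bases before it.
Myl9: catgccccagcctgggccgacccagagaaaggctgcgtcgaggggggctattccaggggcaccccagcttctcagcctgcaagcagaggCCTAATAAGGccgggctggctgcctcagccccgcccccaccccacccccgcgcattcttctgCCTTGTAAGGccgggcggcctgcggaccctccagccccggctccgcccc
The first Acta2 stretch is chr19:34255438-34255467 and the second is chr19:34255388-34255417, both on the minus strand, with boxes of 1 mismatch in capitals, at 84 and 34 bases before the start. The RefSeq starts lie 217 bases inside the gene positions given above for Acta2 and 44 bases inside them for Myl9, which come from GENCODE, so both Acta2 stretches are within the GENCODE gene.
Acta2 distal: gtgctgaggtCCCTATATGGttgtgttaga
Acta2 proximal: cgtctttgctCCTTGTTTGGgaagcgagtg
An exact box was found in 482 of 32851 windows (1.47%) and a box with at most 1 mismatch in 6117 (18.6%). Of 21 windows of 18 contractile genes, 1 held an exact box (4.76%) and 7 a box with at most 1 mismatch (33.3%). Of 16 windows of 12 pericyte genes, 0 held an exact box and 3 a box with at most 1 mismatch (18.8%). A match describes letters in the window and was not tested for binding.

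The list of ion channels and calcium handling holds Kcnj8, a gene of the rule, and Abcc9, a gene of the split. Of 17 genes 10 had at least 20 counts, of which 8 were higher, 3 of them at least 2-fold, and 2 lower, and the median was 0.41. Itpr1, the receptor that releases stored calcium in response to inositol trisphosphate, was at 127 and 55.5 CPM (1.19 [0.41, 2.03]). Ano1, a chloride channel opened by calcium, had 24 and 6 counts (1.74 [0.41, 3.32]) and is named after its values were seen. Their sum had a log2 ratio of 0.53 [0.34, 0.72] in members and 0.16 in fibroblasts. Without Kcnj8 and Abcc9 the sum was at 0.59 [0.33, 0.85] in members, with 6 genes higher and 2 lower, at 0.61 [0.22, 1.01] on the smooth muscle side and at 0.36 [-0.04, 0.75] on the pericyte side. Among vasoactive receptors and genes of cyclic nucleotide signalling, 9 of 21 had at least 20 counts, 7 were higher and 2 lower, and none differed 2-fold. Gucy1a1, a subunit of the nitric oxide receptor guanylate cyclase, was at 524 and 368 CPM (0.51), and Pde3a, a phosphodiesterase that degrades cyclic AMP, was at 0.74. Ramp1, which forms the receptor of calcitonin gene-related peptide, is not among the genes of that list. It was at 202 and 93.5 CPM (1.11), but at -0.31 when the pericyte and smooth muscle sides were given equal weight.

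Genes by which mural cells are recruited and specified were mixed. Notch3, the Notch receptor of mural cells, was at 317 and 210 CPM (0.59 [0.17, 1.03]). In the Notch list 8 of 12 genes had at least 20 counts, with 6 higher, 2 lower and a median of 0.14, and Notch1 (15 and 6 counts, 1.06 [-0.39, 2.71]), named after its values were seen, was the gene past 2-fold. Of the genes that carry signals from endothelium to mural cells, 15 of 25 had at least 20 counts, 10 were higher and 5 lower, and Tgfbr2 (23 and 8 counts, 1.26 [0.05, 2.63]), also named after its values were seen, was past 2-fold. Their summed log2 ratio was 0.01 over all members, -0.54 [-0.79, -0.29] on the smooth muscle side and -0.29 without the collagen-rich members. Of 15 transcription factors of mural cells 11 had at least 20 counts, 9 were higher and 2 lower, and none was past 2-fold. Ebf1, a factor of perivascular cells, was at 873 and 631 CPM (0.47), and Mef2c, a partner of myocardin in muscle gene expression, at 583 and 330 CPM (0.82). The factors summed to a log2 ratio of 0.48 [0.34, 0.63] in members and 0.35 in fibroblasts.

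The scar matrix list summed to a log2 ratio of -0.28 [-0.33, -0.24] over all members, and lower on the sides of the split. The sides leave out cells by their counts of Col1a1, Col1a2, Col3a1 and Dcn, so ratios of these genes on the sides are a description. Just under that limit of 2%, at 1% or more, were 6 of 135 ENPP1CKO and 10 of 66 control cells. Col1a1, a chain of type I collagen, was at 372 CPM on the pericyte side of the ENPP1CKO library and 1420 CPM on that of the control library (-1.93), and at 264 and 877 CPM on the smooth muscle sides (-1.73). Col1a2, the other chain, was at 978 and 2126 CPM on the pericyte sides (-1.12) and 785 and 1500 CPM on the smooth muscle sides (-0.93). Col3a1, type III collagen, was at 1435 and 2920 CPM on the pericyte sides (-1.03), and its ratio was -0.90 on the smooth muscle sides. Over all members these ratios were -0.69, -0.23 and -0.19, since the collagen-rich members hold much of the RNA of these genes. Bgn, the proteoglycan biglycan, was at 2262 and 3905 CPM over all members (-0.79 [-0.91, -0.67]), and Sparc, a matrix protein that binds collagen, at 5997 and 8759 CPM (-0.55 [-0.62, -0.47]). Markers of fibroblasts were lower on the same sides, with a summed log2 ratio of -0.85 [-0.98, -0.71] on the pericyte side and -0.69 [-0.86, -0.52] on the smooth muscle side, in a list that holds the genes of the collagen limit as well. Without those genes they were at -0.29 [-0.60, 0.02] on the pericyte side and 0.52 [0.14, 0.92] on the smooth muscle side. The values of the smooth muscle side include the deepest control cell, with 28147 of 141352 control counts. No value without that cell is given. The median percent of a cell's counts in the whole list was 0.144 and 0.210 on that side. The part of the fibroblast markers in the lower matrix level was not tested. In fibroblast-gated barcodes Bgn was at -0.06, Sparc at -0.11, Col3a1 at 0.13, Col1a2 at -0.22 and Col1a1 at -0.51.

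Of 28 genes in the scar matrix list 26 had at least 20 counts, 6 were higher and 20 lower in the ENPP1CKO library, and the median was -0.24. At least 2-fold lower were Col6a3, a chain of type VI collagen (161 and 336 CPM, -1.06), Loxl2, which crosslinks collagen (-1.08), Timp1, an inhibitor of metalloproteinases (-1.12, and -0.74 without the deepest control cell), and Thbs1, thrombospondin 1 (356 and 736 CPM, -1.05). At least 2-fold higher were Acan, the proteoglycan aggrecan (31 and 11 counts, 1.23 [0.20, 2.38]), which together with Thbs1 is named after its values were seen, and Eln, the elastin of arterial walls, at 1841 and 751 CPM (1.29). Single cells held 32.7% and 27.6% of the Eln counts, and the ratio was 0.62 without the 10 deepest cells of each library. The scar matrix summed to 8438 and 17463 CPM on the pericyte sides, a log2 ratio of -1.05 [-1.15, -0.95], and to 7234 and 12918 CPM on the smooth muscle sides, a log2 ratio of -0.84 [-0.94, -0.73]. The control level on the smooth muscle side includes the deepest control cell, with 28147 of 141352 counts, and no value without it is given. The median percent of a cell's counts in the list was 0.345 and 0.760 on that side. Without Col1a1, Col1a2 and Col3a1 the remaining 25 genes were at -0.96 [-1.08, -0.84] on the pericyte side, -0.75 [-0.87, -0.63] on the smooth muscle side and -0.27 [-0.33, -0.21] over all members. The whole list was at -0.84 over members without the collagen-rich set and -0.12 in fibroblasts.

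Among single cells, a count of Col1a1 was detected in 32 of 80 ENPP1CKO and 20 of 31 control cells of the pericyte side, and in 11 of 48 and 15 of 26 cells of the smooth muscle side, so its share was lower in the ENPP1CKO library on both, without thinning. Col1a2 was detected in 62.5% of the ENPP1CKO and 96.8% of the control cells of the pericyte side, and in 46.9% and 80.6% when thinned to 1000 counts. On the smooth muscle side the shares of Col1a2 were 75.0% and 80.8%, and 41.7% and 42.3% when thinned. Macrophage-gated barcodes, which take up free RNA but make little collagen, held a count in 29.6% and 38.4%, and in 12.1% and 15.1% when thinned. The percent of a cell's counts in the scar matrix list ran from 0.00 over a median of 0.57 to 3.18 on the ENPP1CKO pericyte side, and from 0.27 over 1.33 to 3.34 on the control pericyte side, so that the cells overlapped. The scar matrix sum of macrophage-gated barcodes had a log2 ratio of -0.33, and how much free RNA adds to the difference in members was not tested.

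Basement membrane genes were mixed. Of 20 genes 17 had at least 20 counts, with 8 higher and 9 lower. The sum had a log2 ratio of -0.39 [-0.45, -0.33] over all members and -0.59 without the collagen-rich ones. It was at -0.66 [-0.76, -0.56] on the pericyte side, -0.45 [-0.57, -0.33] on the smooth muscle side and -0.03 in fibroblasts. Col4a1, a chain of the type IV collagen of the basement membrane, was at -0.35. Past 2-fold were the laminin receptor subunit Itga7 (1.01) and Itga8 (26 and 6 counts, 1.85 [0.54, 3.43]), a partner of integrin beta 1 in smooth muscle that is named after its values were seen.

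**Figure D4:**
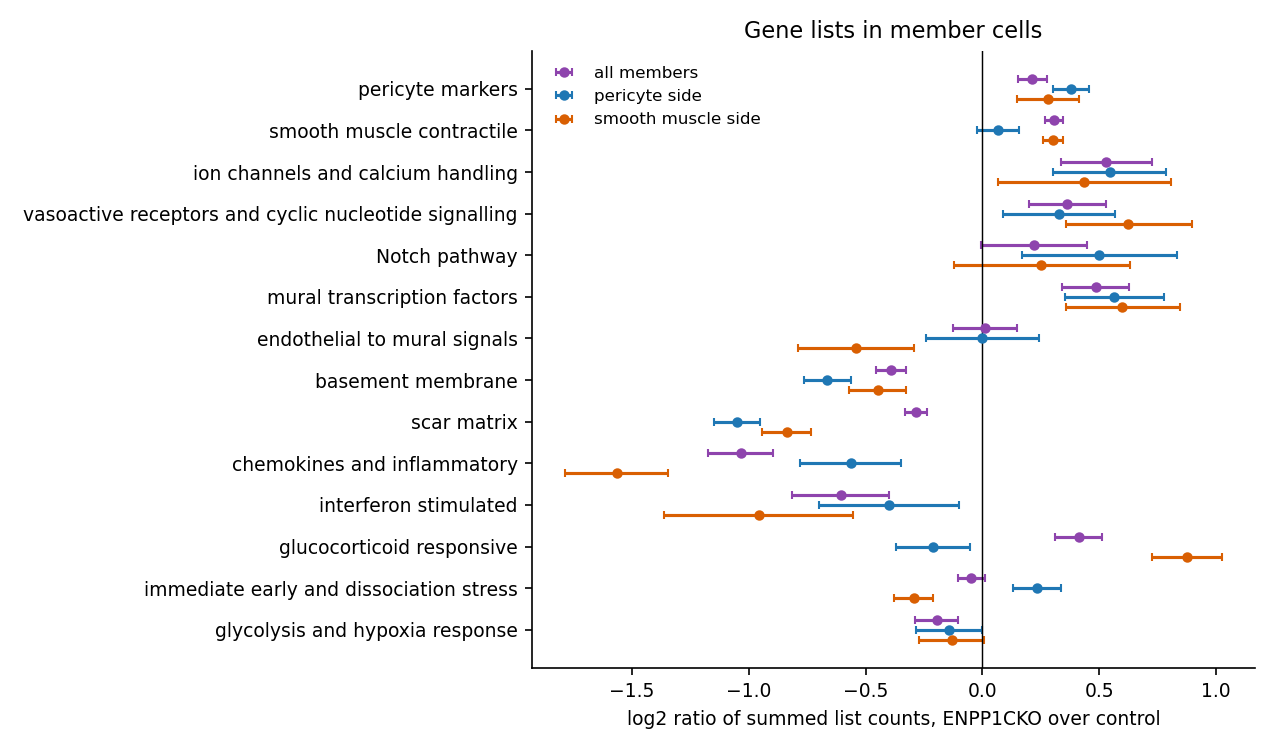
Log2 ratios of ENPP1CKO over control of the summed counts of gene lists, with 95% limits, in all members, on the pericyte side and on the smooth muscle side. The contractile sum lies above 0 in all members and on the smooth muscle side, and the scar matrix sum lies below 0 in all 3 sets.

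Over all genes with at least 50 counts in the members, 70 of 2226 (3.14%) were at least 2-fold higher in the ENPP1CKO library and 70 of 2226 (3.14%) at least 2-fold lower. The numbers were 74 and 127 with equal weight for both sides, which leaves out collagen-rich and tied cells, 69 and 97 without the collagen-rich members, and 59 and 85 with TMM scaling. Among the genes with the highest ratios, Pln, phospholamban, the inhibitor of the calcium pump of the sarcoplasmic reticulum, was at 439 and 129 CPM (1.77 [1.29, 2.28]). Its ratio was 0.77 in fibroblast-gated, -0.51 in endothelial-gated and 2.06 in macrophage-gated barcodes. Pln is also in the list of cardiomyocyte markers, whose sum was at 524 and 181 CPM in members (1.53 [1.12, 1.97]), with 1.35, 3.13 and 1.74 in the same order of gates, and the part of cardiomyocyte RNA in the ratio was not tested. Sorbs2, an adaptor of muscle actin filaments, was at 397 and 137 CPM (1.53 [1.06, 2.03]). Cav1, which forms the caveolae of vascular cells, was at 399.8 and 161 CPM (1.32 [0.87, 1.78]), and its ratio on the pericyte side was 2.36. Endothelial markers summed to 6084 and 2381 CPM on that side (1.35 [1.17, 1.54]), with -0.22 on the smooth muscle side. Their part in the ratio of Cav1 was not tested. Ogn, the proteoglycan osteoglycin, was at 412 and 146 CPM (1.50 [1.03, 1.98]), with the highest level in the collagen-rich members (1493 and 1034 CPM). Tsc22d3, which glucocorticoids induce, was at 154 and 49.7 CPM (1.63 [0.84, 2.50]). Its ratio was also 2.04 in fibroblast-gated, 1.58 in endothelial-gated and 1.11 in macrophage-gated barcodes, so the ratio was above 0 in all 4 sets.

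Igfbp7 (chr5:77349240-77408041), a secreted protein of vascular cells that binds insulin-like growth factors, had one of the lowest ratios of the abundant genes. It had 589 and 2573 counts, or 1436 CPM in ENPP1CKO and 7515 CPM in control members, a log2 ratio of -2.39 [-2.52, -2.26]. The ratio was -2.64 on the pericyte side and -2.31 on the smooth muscle side. It was -1.66 in fibroblast-gated, -2.42 in endothelial-gated and -0.93 in macrophage-gated barcodes. The transcription factors Jund (222 and 771 CPM, -1.80) and Klf2 (154 and 368 CPM, -1.26) were likewise lower in the other gates, with -1.68, -1.15 and -1.50 for Jund and -1.47, -1.40 and -1.42 for Klf2 in fibroblast-gated, endothelial-gated and macrophage-gated barcodes. Of 20 immediate early and dissociation genes with at least 20 counts these were the 2 past 2-fold, and 10 were higher and 10 lower. What separates the libraries as a whole from the genotype cannot be told apart with 1 library of each.

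**Figure D5:**
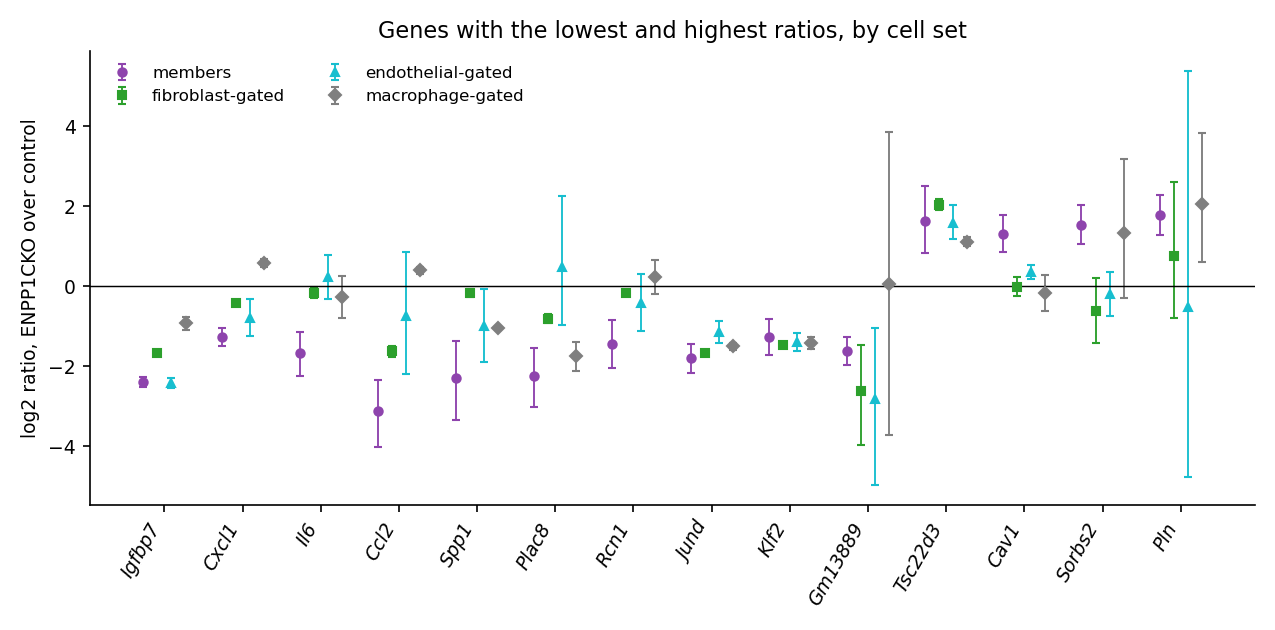
Log2 ratios of ENPP1CKO over control (y axis, points, with bars for 95% limits) of named genes in members, fibroblast-gated, endothelial-gated and macrophage-gated barcodes. Igfbp7, Jund and Klf2 lie below 0 and Tsc22d3 above 0 in all 4 sets, whereas Il6 and Rcn1 lie at -1.68 and -1.44 in members and at -0.16 and -0.17 in fibroblasts.

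Chemokines and inflammatory mediators stood lower in the ENPP1CKO members, in a few genes with large ratios. Ccl2, which attracts monocytes, had 15 and 109 counts in 8 and 16 cells, or 36.6 and 318 CPM (-3.12 [-4.01, -2.34]). Its ratio was -1.63 in fibroblast-gated and 0.40 in macrophage-gated barcodes. Cxcl1, which attracts neutrophils, was at 629 and 1510 CPM (-1.26 [-1.48, -1.05], and -0.99 without the deepest control cell), with -0.41 in fibroblasts. Il6, the cytokine interleukin-6, was at 97.5 and 313 CPM (-1.68 [-2.24, -1.14]), with -0.16 in fibroblasts. Spp1, osteopontin, was at 29.3 and 143 CPM (-2.29). The acute phase genes Saa3 and Hp had 0 counts in ENPP1CKO members, against 52 counts in 9 control cells and 165 counts in 10 control cells. With 3 counts as the floor of a library, Saa3 was at least 20.8-fold lower and Hp at least 65.9-fold lower. However, single cells held 69.2% of the Saa3 and 43.6% of the Hp counts, and Saa3 was also lower in fibroblast-gated (-4.75) and macrophage-gated barcodes (-5.69), whereas Hp was at -0.17 in fibroblasts.

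In the list, 14 of 24 genes had at least 20 counts, 5 were higher and 9 lower. The 5 that were at least 2-fold lower were Ccl2, Cxcl1, Il6, Saa3 and Spp1. Cxcl10, an interferon-induced chemokine named after its values were seen, was at least 2-fold higher (25 and 4 counts, 2.38 [0.85, 4.37]). Their sum was at 1609 and 3294 CPM (-1.03 [-1.17, -0.89]), with -0.56 on the pericyte side, -1.56 on the smooth muscle side and -0.48 in fibroblasts. Over all members it was -0.88 without the deepest control cell, which is part of the smooth muscle side. Of 21 interferon-stimulated genes 10 had at least 20 counts, 1 was higher and 9 lower, and Ifi27l2a (246 and 499 CPM, -1.02) was the gene past 2-fold. Their sum had a log2 ratio of -0.61 [-0.81, -0.40] in members and -0.05 in fibroblasts. Other low genes were Plac8 (51.2 and 242 CPM, -2.24 [-3.01, -1.54]) and Rcn1, a calcium-binding protein of the endoplasmic reticulum (85.3 and 231 CPM, -1.44), and the latter was at -0.17 in fibroblasts.

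Markers of other cells differed between the members of the libraries beside these results. All 9 macrophage markers with at least 20 counts were lower in the ENPP1CKO members, 8 of them at least 2-fold, and their sum was at 478 and 1863 CPM (-1.96 [-2.20, -1.73]). A single control cell held 85.8% of the Cd74 counts of the control members, and the deepest control cell held 35.7% of those of Lyz2, without which Lyz2 was at -0.92. The sum was at -1.60 without the deepest control cell, -1.17 with cells thinned to 1000 counts and -0.79 without the 10 deepest members of each library. Counts of C1qa, C1qb and C1qc came to 0.851% of the macrophage-gated level in ENPP1CKO and 2.08% in control members. Subtracting the macrophage profile at these shares left 68 genes at least 2-fold higher and 64 at least 2-fold lower. The rule limits the C1q genes in members, so these shares rest on values that the rule used, and the subtraction supports nothing. Endothelial markers went the other way, with 6 of 14 at 20 counts or more, all 6 higher and 4 at least 2-fold, and a sum of 2614 and 1402 CPM (0.90 [0.74, 1.06]). The list holds Pecam1 and Flt1, which the rule limits in members, so its tally and sum are in part a description. Ly6c1 had 62 and 3 counts (4.11 [2.49, 6.43]), Pecam1 19 and 1 (3.99 [1.33, 9.36]), Flt1 20 and 1 (4.06 [1.42, 9.43]), and Rbp7 had 22 counts in 8 ENPP1CKO cells and 0 in control members, at least 6.12-fold higher. Fabp4, the most abundant of them, was at 4552 and 2148 CPM on the pericyte side and 459 and 658 CPM on the smooth muscle side. Its level in endothelial-gated barcodes was 22034 and 9006 CPM. Fibroblast markers summed to a log2 ratio of -0.19 over all members and of -0.79 without the collagen-rich ones. In the cardiomyocyte list Pln and Tnnt2, cardiac troponin T (33 and 12 counts, 1.20 [0.21, 2.29]), were the genes with at least 20 counts, and Pln is a gene of smooth muscle as well. Of the T and NK cell and the Schwann cell lists 1 gene each reached 20 counts, and of the neutrophil and B cell lists 0 genes did. The part of these markers in the results on mural genes was not tested.

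The genes that lie closest to the study's question were few and low in these cells. Of 16 genes of pyrimidine synthesis and salvage only 3 had at least 20 counts, and all 3 were lower in the ENPP1CKO library, none by 2-fold, with a summed log2 ratio of -0.72. The sum was -1.02 [-1.53, -0.53] on the smooth muscle side, -0.08 [-0.64, 0.48] on the pericyte side, and -0.21 over members thinned to 1000 counts. Nme1, which phosphorylates nucleoside diphosphates, was at 144 and 257 CPM (-0.84 [-1.34, -0.35]). Of 15 genes of extracellular nucleotides and nucleosides 7 had at least 20 counts, 5 higher and 2 lower and none past 2-fold. Of 18 p53 targets 10 had at least 20 counts, 5 higher and 5 lower, and their sum was at -0.10. Cdkn1a, the cell cycle inhibitor p21, was at 0.72. Past 2-fold were Perp, a membrane protein of desmosomes (151 and 52.6 CPM, 1.52), and Ccng1 (30 and 12 counts, 1.06 [0.05, 2.16]), a cyclin named after its values were seen.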

How the data were processed

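Members, gene lists and the genes to be named were chosen with earlier results of these data known. The authors deposited, for each library, raw counts of unique molecules for 31053 Ensembl genes in every cell barcode. The submitters' notes name Cell Ranger and mm10, and the Cell Ranger version is not given in the sources used here. No count column was left unused, and the bulk libraries of CFs and cardiomyocytes were not analysed here.

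Counts were handled in Python 3.11.15 with scipy 1.17.1, and Scrublet in scanpy 1.11.5 predicted doublets. Counts of members were summed per library. A log2 ratio of CPM was given exact conditional binomial limits, a level Poisson limits and a share Clopper-Pearson limits, with Newcombe limits for a difference of shares. A gene at 0 was set to a floor of 3 counts. Over both libraries, single genes needed at least 50 counts and genes of the 27 lists at least 20, and 2-fold was the size asked for. No test between genotypes was made with 1 library of each. The procedure was tested on simulated counts.

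The genes named are the marker genes and Enpp1, in each list up to 4 with most counts and up to 3 highest and 3 lowest past 2-fold at 50 counts, and the 12 highest and 12 lowest ratios at 100 counts between genotypes, sides and cell sets. Alternatives were TMM factors (edgeR 4.0.16 in R 4.3.3), thinning to 1000 counts, a quality filter (at least 200 genes, at most 20% mitochondrial counts, doublets out), a doubled marker threshold, collagen-rich members out, equal weight per cell or per side, subtraction of the macrophage profile and minimums of 20 and 200 counts. Leaving out the 10 deepest members of each library or the deepest control member, and leaving genes of the rule, split or collagen limit out of lists, was added after the data were seen. Some genes are not reported here. Gene positions come from GENCODE M21 and promoters from RefSeq on GRCm38.p6.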

Additional observations from a re-analysis of the deposited data

Results flagged for a closer look

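For 2 contractile genes, the ratio was past 2-fold in opposite directions in members and in other cells of the same libraries. Myl9 had a log2 ratio of 1.05 in members and -1.35 in fibroblast-gated barcodes. Sncg had a log2 ratio of 1.13 in members, -1.48 in fibroblast-gated barcodes (11.0 and 30.7 CPM) and -1.51 in endothelial-gated barcodes (40.0 and 114 CPM). With 1 library per genotype each set gives a single ratio, so the difference between the sets was not tested. Ratios under 2-fold in members also had the opposite sign in fibroblasts, such as those of Tagln (0.30 and -1.08) and Tpm2 (0.50 and -1.01). With every member given the same weight the ratios in members were 0.82 for Myl9 and 0.96 for Sncg.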

How the results depend on the processing

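The counts of genes past 2-fold differed between the settings. With members thinned to 1000 counts, which leaves out 17 ENPP1CKO and 2 control members and leaves 626 genes at 50 counts, 10 genes were at least 2-fold higher and 20 at least 2-fold lower, where 70 and 70 were counted without thinning. A minimum of 20 counts gave 267 and 202, and a minimum of 200 counts gave 12 and 15. With equal weight for both sides 127 were at least 2-fold lower. With equal weight for both sides 15 of 133 named genes changed sign, 6 of them with limits that exclude 0. These were Ramp1, past 2-fold (1.11 to -0.31), and Abcc9 (0.76 to -0.76), Ptn (0.63 to -0.36), Colec11 (0.36 to -0.26), Fbxl22 (0.53 to -1.18) and Clu (-0.41 to 0.55). Under the other settings at most 2 such genes changed sign, among them Rgs5 and Itih4 (-0.53 to 0.09) with the marker threshold doubled, Ptn without the collagen-rich members (-1.15) and Cebpd with thinned cells (0.34 to -0.22). The TMM factor was 1.016. Of 22 list medians 20 kept their sign with TMM factors and 17 with thinning, and all 22 did so without the 10 deepest members or without the deepest control member. Why these values moved was not tested. No paired analysis was possible because each genotype has 1 library, so the groups share fewer than 2 replicate numbers.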

Other observations

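Glucocorticoid-responsive genes were mixed on the sides of the split. Of 14 genes 8 had at least 20 counts in members. Over all members 7 were higher and 1 lower, and Tsc22d3 and Sgk1 (99.96 and 38.0 CPM, 1.40), a kinase that regulates sodium channels, were past 2-fold. The sum, of which Mt1 gave 2755 of 5110 CPM in ENPP1CKO members, had a log2 ratio of 0.41 over all members, 0.13 without the 10 deepest members of each library, 0.09 with cells thinned to 1000 counts and 0.15 with equal weight per cell. It was 0.88 on the smooth muscle side, -0.21 on the pericyte side and 0.45 in fibroblasts. Mt1, a metallothionein that binds zinc and copper, was at 2755 and 2176 CPM over all members (0.34, and -0.05 with equal weight per cell), with ratios of 1.11 on the smooth muscle side and -0.73 on the pericyte side. On the smooth muscle side Sgk1 was at -0.13, and counts of Fkbp5 were found in 0 of 48 ENPP1CKO and 3 of 26 control cells. The 0 allows up to 7.40% of cells with a count, at medians of 3468 and 4075.5 counts per cell, and does not limit how many cells express the gene.

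Genes of the cell cycle had few counts in members. Of 28 genes 6 had at least 20 counts, 3 higher and 3 lower. The list summed to a log2 ratio of 0.28 [0.05, 0.52] over all members. The sums of the sides went opposite ways, with 1.13 [0.79, 1.48] on the pericyte side and -0.71 [-1.18, -0.25] on the smooth muscle side. On the pericyte side the highest ENPP1CKO cell had 3.28% of its counts in the list, and the highest control cell 0.215%. The median cell there was lower in the ENPP1CKO library, at 0.0554% against 0.0781%. On the smooth muscle side the medians were 0.0331% and 0.0555%. The pericyte sum without its highest cell is not given. Cenpf, a kinetochore protein chosen after its values were seen, had 19 and 2 counts (2.99 [0.94, 6.13]) and Hmgb2, a chromatin protein, 51 and 15 counts (1.50 [0.65, 2.44]), of which a single ENPP1CKO cell held 45.1%. Of 21 glycolysis and hypoxia genes 15 had at least 20 counts, 5 higher and 10 lower, with a median of -0.16. Ankrd37, a hypoxia-induced gene chosen after its values were seen, was past 2-fold (30 and 11 counts, 1.19 [0.15, 2.33]), and Gapdh was at -0.89 in members, -0.84 in fibroblast-gated, -0.56 in endothelial-gated and -0.74 in macrophage-gated barcodes. Of 22 apoptosis effectors 11 had at least 20 counts, 7 higher and 4 lower. Bcl2l11, which starts mitochondrial apoptosis and was chosen after its values were seen, was past 2-fold with 16 and 4 counts (1.74 [0.11, 3.78]).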
